A study of Macaca mulatta with 16 samples.

Results

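Nuclear genes for subunits of respiratory complexes I to IV were followed in whole fetal lung of the rhesus macaque. The members were taken from a list of 43 gene symbols. A row in the counts table was found for 40 of them by Ensembl ID, out of 22515 genes in the table, and all 40 passed the filter on low counts, which left 19199 genes tested. They are 24 of 26 listed subunits of complex I, 4 of 4 of complex II, 5 of 6 of complex III and 7 of 7 of complex IV. NDUFAB1, NDUFB6 and UQCRFS1 matched no row and are not analysed here.

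The respiratory chain sits in the inner mitochondrial membrane. Complex I takes electrons from NADH, complex II takes them from succinate, and both pass them through ubiquinone to complex III. Cytochrome c then carries them to complex IV, which reduces oxygen. Protons pumped by complexes I, III and IV drive the ATP synthase. Most of the subunits are made from nuclear genes and imported, and a smaller core is encoded in the mitochondrial genome. The fetal lung grows in low oxygen, and the alveolar type 2 cell, which makes surfactant, is among the mitochondria-rich cells of the lung.

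The lungs came from 16 fetuses, each with 1 poly(A) RNA-Seq library, in 5 groups. Preterm controls (n = 4, animals 092, 101, 113 and 209) were untreated and delivered at 131 to 135 days of gestation. Fetuses of the LPS 16h group (n = 4, animals 026, 029, 035 and 038) received 1 mg of bacterial lipopolysaccharide (LPS) into the amniotic fluid at 129 or 130 days. They were delivered 16 hours later, at 130 or 131 days, and so were no older than the youngest preterm control. LPS 5d fetuses (n = 3, animals 239, 240 and 242) received the same dose at 126 to 129 days and were delivered 5 days later, at 131 to 134 days. LPS + Beta-Ac fetuses (n = 3, animals 248, 249 and 255) received the LPS at 126 or 127 days together with 0.125 mg/kg of betamethasone-acetate, a corticosteroid, given intramuscularly to the dam, and were delivered at 131 or 132 days. Term controls (n = 2, animals 200 and 201) were untreated and delivered at 156 and 157 days. No allele or strain is named in the labels. The study asked how intraamniotic inflammation, alone or with a low steroid dose, changes the maturation of the preterm lung.

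Total counts were 30596371 to 48052891 in the LPS 16h libraries and 20169363 to 28348816 in the other 12, so the LPS 16h group and greater depth cannot be told apart. Levels are given as CPM, the count relative to the total of its library, after TMM scaling, a correction for library composition, and differences as log2 fold changes on log2 CPM. A gene counts as called where its adjusted p in limma (Benjamini-Hochberg, over all genes tested) was under 0.05. Transcript lengths were not at hand, so levels are compared between animals and not between genes. There were 2 libraries that stood apart: the LPS 16h animal 029 had the highest value of its group in 38 of 40 members, and the LPS 5d animal 240 had 1180 CPM in the summed markers of cardiac and skeletal muscle against 15 to 73.7 CPM in the other animals. The markers of alveolar type 2 cells, which define lung tissue here, summed to at least 7320 CPM in every animal.

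The mean of the 40 members on the log2 CPM scale, used as a score, was highest 16 hours after LPS. It was 5.67 in animal 026, 6.22 in animal 029, 5.74 in animal 035 and 5.76 in animal 038. In the preterm controls it ran from 5.49 to 5.69, with a mean of 5.58 ± 0.08 (SD, n = 4), so the groups overlapped through animal 026. At 5 days the score was 5.59 ± 0.06 (SD, n = 3) after LPS and 5.60 ± 0.12 (SD, n = 3) after LPS + Beta-Ac, and at term it was 5.48 ± 0.15 (SD, n = 2). The LPS 16h mean was 5.85 ± 0.25 (SD, n = 4) with animal 029 and 5.72 ± 0.05 (SD, n = 3) without it. The score is a description and was not tested.

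**Figure D1:**
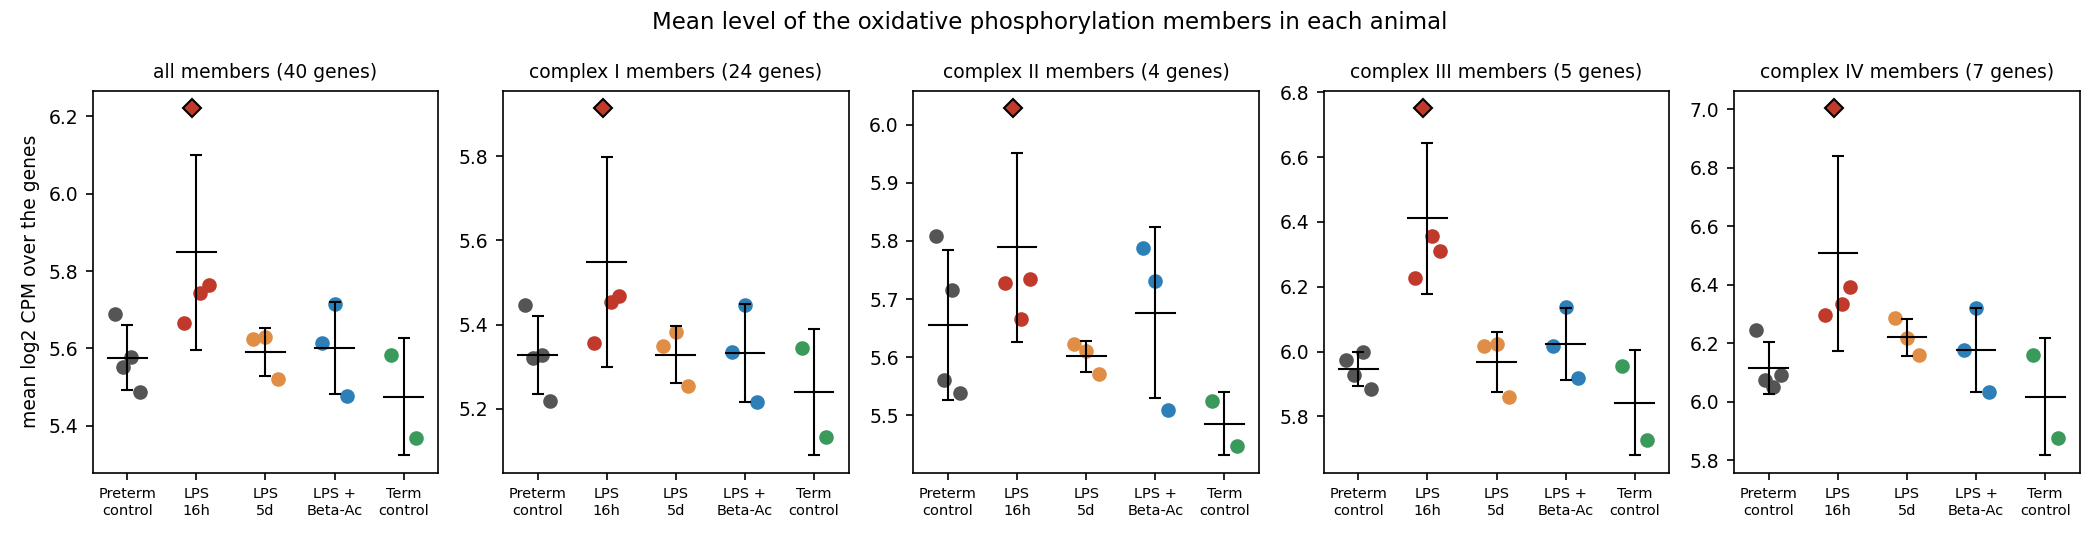
Mean log2 CPM of all 40 members and of the members of each complex, 1 point per animal, with the group mean (line) and SD (bar); the diamond is LPS 16h animal 029. The axes do not start at 0 because the values are logarithms. For complex III the 4 LPS 16h animals lie at 6.23 to 6.75, all above the preterm controls at 5.88 to 6.

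Part of the respiratory chain was higher 16 hours after LPS than in preterm controls. In LPS 16h against preterm controls, 17 of 40 members were called higher, while 18.5% of all genes tested were, and 1 of 40 was called lower, against 19.9% of all genes. None of the 40 changed by 2-fold or more, against 14.4% of all genes. The member median was a log2 fold change of 0.25 and the median of all genes was -0.09. In 16 of 40 members every LPS 16h animal lay above every preterm control, against 16.9% of all genes, and in 0 of 40 every LPS 16h animal lay below, against another 16.9%. By complex, 8 of 24 members of complex I, 2 of 4 of complex II, 4 of 5 of complex III and 3 of 7 of complex IV were called higher. The medians of complexes I to IV were all above 0, at 0.22, 0.22, 0.52 and 0.23. With scaling to the total count only, they were 0.015, 0.021, 0.319 and 0.034. Those of complexes I, II and IV were then close to 0.

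The higher members of complex I included subunits of the arm that takes up electrons and accessory subunits. NDUFV2 belongs to the module that oxidizes NADH, and it was at 54.2, 49.7, 47.9 and 40.9 CPM in the preterm controls and at 67.5, 94.4, 67.3 and 83.1 CPM in the LPS 16h animals. It rose by a log2 fold change of 0.69 (SE 0.13, adjusted p = 0.000599, limma). NDUFS1, the largest iron-sulfur subunit, rose from 41.6 ± 3.66 CPM (SD, n = 4) to 61.6 ± 5.17 CPM (SD, n = 4), a log2 fold change of 0.57 (SE 0.11, adjusted p = 0.000665, limma). It was 1 of the 2 members in which animal 029 was not the highest: that animal had 54.1 CPM and the other 3 had 62.3 to 65.4 CPM. Among accessory subunits, NDUFA9 was at 46.9 to 57.8 CPM in the controls and at 71.3 to 83.4 CPM after LPS, and rose by 0.50 on the log2 scale (SE 0.09, adjusted p = 0.00059, limma). NDUFA2 was at 36.6 to 46.2 CPM in the controls and at 55.0, 86.8, 66.9 and 85.1 CPM after LPS, with a log2 fold change of 0.81 (SE 0.14, adjusted p = 0.000337, limma). In all 4 of these genes the groups did not overlap. NDUFV1, the partner of NDUFV2 that binds the flavin, did not follow it: 54.4, 60.0 and 60.2 CPM in 3 LPS 16h animals lay below the lowest control at 67.0 CPM, animal 029 lay above the highest at 91.0 CPM, and the log2 fold change of -0.13 was not called (adjusted p = 0.512, limma).

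Complex III had the largest share of members called. All 5 members with a row had log2 fold changes above 0, from 0.15 to 0.70, and 4 were called. All 7 members of complex IV were above 0 as well, from 0.02 to 0.91, and 3 were called. With scaling to the total count only, 2 of the 5 members of complex III were called. UQCRC1, a core protein of the complex, was at 95.1, 87.1, 103 and 90.3 CPM in the controls and at 119, 166, 141 and 120 CPM in the LPS 16h animals. Its log2 fold change was 0.53 (SE 0.13, adjusted p = 0.00401, limma). CYC1, the cytochrome c1 that hands electrons to cytochrome c, was at 64.6 to 75.5 CPM in the controls and at 80.4, 124, 117 and 81.3 CPM after LPS, a log2 fold change of 0.52 (SE 0.15, adjusted p = 0.0131, limma). In both genes every LPS 16h animal was above every control. UQCRQ and UQCRB, small subunits of the complex, were called at 0.70 and 0.43, and UQCRC2, the second core protein, was not at 0.15 (adjusted p = 0.186, limma).

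In complex IV, COX5A had the largest log2 fold change of the 40 members. This nuclear-encoded accessory subunit of cytochrome c oxidase was at 32.4, 28.9, 27.7 and 32.2 CPM in the controls and at 49.6, 74.7, 50.7 and 56.7 CPM in the LPS 16h animals. Its log2 fold change was 0.91 (SE 0.15, adjusted p = 0.000212, limma), a fold of 1.88. COX7B, a small membrane subunit, was at 57.8 to 70.7 CPM in the controls and at 85.7, 127, 99.5 and 100 CPM after LPS, with a log2 fold change of 0.69 (SE 0.11, adjusted p = 0.000181, limma). COX4I1, the common form of subunit 4, and COX7C, a small membrane subunit, were not called. Their log2 fold changes were 0.22 (adjusted p = 0.314, limma) and 0.07 (adjusted p = 0.786, limma), and that of COX7C was -0.13 with scaling to the total count only and -0.07 without animal 029.

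Succinate dehydrogenase, which is both complex II and an enzyme of the tricarboxylic acid cycle, was split. SDHB, its iron-sulfur subunit, was at 39.5 to 49.2 CPM in the controls and at 53.4, 77.9, 55.7 and 53.7 CPM after LPS, and rose by 0.435 on the log2 scale (SE 0.12, adjusted p = 0.0105, limma). SDHA, the flavoprotein, was at 104 to 119 CPM in the controls and at 105 to 153 CPM after LPS and was not called. Its log2 fold change was 0.14 (adjusted p = 0.408, limma) with TMM and -0.06 with the total count only. SDHD, a membrane anchor, had a log2 fold change of -0.34 (adjusted p = 0.154, limma). With the total count only, 0 of the 4 members of complex II were called higher and 1 was called lower.

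NDUFA5, an accessory subunit of complex I, was the 1 member called lower. It was at 75.4, 61.1, 83.6 and 44.3 CPM in the preterm controls and at 41.8, 45.6, 36.6 and 42.2 CPM in the LPS 16h animals. Control animal 209 lay within the LPS range and the other 3 controls lay above it. The log2 fold change was -0.63 (SE 0.16, adjusted p = 0.00543, limma).

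**Figure D2:**
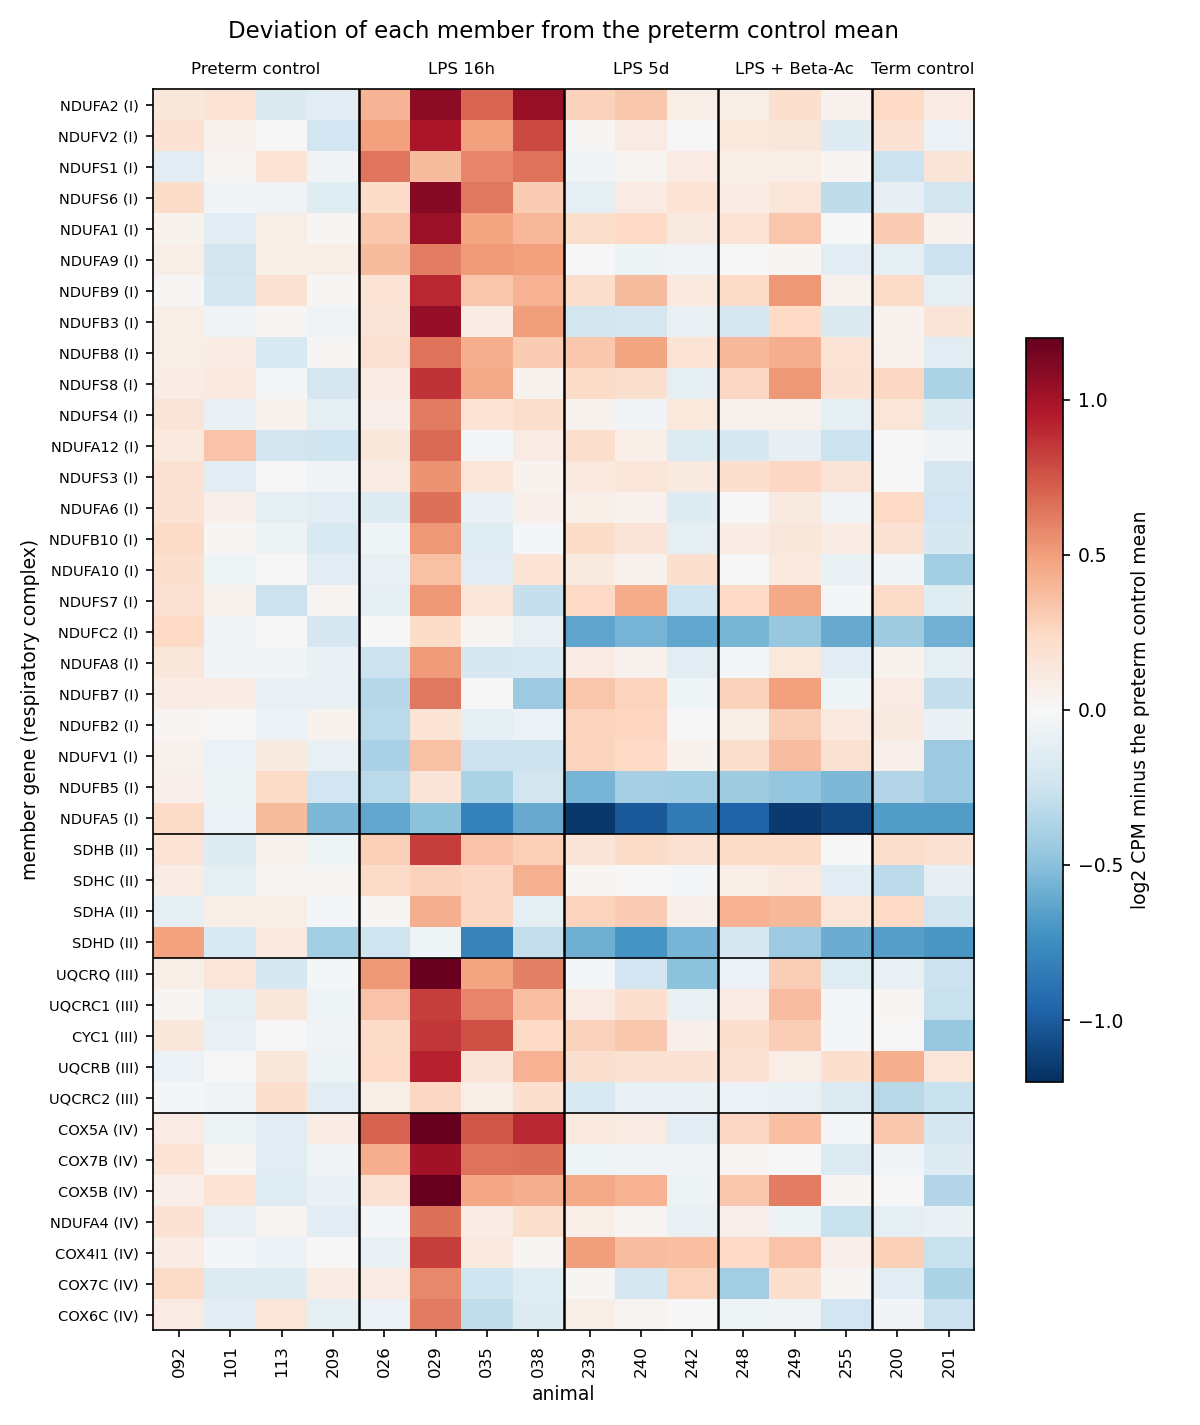
Each member (rows, by complex, ordered by the LPS 16h change) in each animal (columns, by group), as log2 CPM minus the preterm control mean. Values beyond 1.2 in size take the end color. Animal 029 is highest of its group in 38 of 40 members. NDUFA5, NDUFC2, NDUFB5 and SDHD, and by less UQCRC2, are below the control mean in every LPS 5d, LPS + Beta-Ac and term animal.

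The remaining calls, outside the 6 of smallest p, were NDUFA1, NDUFB8, NDUFB9 and NDUFS6 of complex I, SDHC of complex II and COX5B of complex IV, at log2 fold changes from 0.30 to 0.58. The groups overlapped in NDUFB9 and NDUFS6. Many of these genes are short, and reads shared with near-identical copies elsewhere in the genome could be split by the pseudoalignment, so levels of single members are uncertain to that extent. The strand of the libraries is not given in the sources used here, so reads of an antisense or overlapping gene could not be told apart.

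The calls at 16 hours did not hang on animal 029 alone. Without it, 15 of the 17 members were still called higher, and NDUFB9 and COX5B, picked out because they were lost, were not. NDUFB5 was then called lower beside NDUFA5, and the member median was 0.16. In every one of the 8 fits that left out 1 animal of either group, 12 of the 17 higher members and NDUFA5 were called. With scaling to the total count only, 9 members were called higher and 5 lower, and the share of higher calls went from 94.4% to 64.3%. Over all 19199 genes tested, 2542 were then called higher and 6187 lower, and that share went from 48.2% to 29.1%. That scaling moved the median of all genes by -0.20. A scaling factor shifts all genes of a library nearly alike. The gap between the member median and that of all genes was therefore bound to stay at 0.34, and it is no check.

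Other transcript classes also differed between the groups. At 16 hours 18.5% of all genes were called higher and 19.9% lower. The 31 tested cytosolic ribosomal protein genes, which are short and abundant, all had log2 fold changes above 0 in LPS 16h, with a median of 0.37 and 13 called higher. Their summed level in animal 029 was 28600 CPM, the highest of the 16, with 13700 to 15800 CPM in the preterm controls. In LPS 5d, where the member score lay at the control level, the same genes summed to 20200 to 21000 CPM. Again 13 were called higher, against 5.49% of all genes. The 16 myeloid markers summed to 219 to 361 CPM in the preterm controls, 2820 to 3500 CPM in LPS 16h, 444 to 494 CPM in LPS 5d, 812 to 1470 CPM in LPS + Beta-Ac and 458 to 708 CPM at term, and 14 of 16 were called higher at 16 hours. The 7 markers of alveolar type 1 cells, the flat cells of gas exchange, went from 3930 to 4520 CPM down to 1440 to 1710 CPM, with 5 of 7 called lower. Of the 10 markers of alveolar type 2 cells, 6 were called higher and none lower at 16 hours, with a median log2 fold change of 1.01, and their mean log2 CPM was 8.89 in the preterm controls, 9.84 (9.835) in LPS 16h, 9.77 in LPS 5d, 9.91 in LPS + Beta-Ac and 9.74 at term. Of 8 fibroblast markers, 5 were called lower and none higher at 16 hours, with a median of -0.75, and they summed to 14100 to 23300 CPM in the preterm controls and 9700 to 13600 CPM in LPS 16h. In bulk tissue, more or fewer cells of a type and more or less RNA per cell cannot be told apart, and the part of these shifts in the member values was not tested.

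By 5 days after LPS no member was called higher and 4 were called lower, and neither number stood far from the share of all genes. In LPS 5d against preterm controls, 0 of 40 members were called higher, against 5.49% of all genes, and 4 of 40 were called lower, against 9.22%. One of the 40 was past 2-fold, against 4.83% of all genes. At an unadjusted p below 0.05 there were 6 of 40 members in either direction, against 5376 of all 19199 genes. Limma-voom also called 0 higher. In LPS + Beta-Ac against the same controls, 0 of 40 were called higher, against 7.14% of all genes, 3 of 40 lower, against 10.2%, and 1 of 40 was past 2-fold, against 6.49%. There, 5 of 40 members had an unadjusted p below 0.05, against 5772 of all 19199 genes, and limma-voom called 0 higher. In term against preterm controls, 0 of 40 were called higher, against 1.43% of all genes, 1 of 40 lower, against 2.58%, and 0 of 40 past 2-fold, against 2.07%. At term 5 of 40 members had an unadjusted p below 0.05, against 3626 of all 19199 genes, and limma-voom called none. These 3 comparisons and the 16 hour comparison share the 4 preterm controls, so their values are set side by side only. The shares of members called lower, 10%, 7.5% and 2.5%, were near those of all genes. With 40 members, 0 called higher is also not far from the small shares of all genes. Nothing is read from either number. Log2 fold changes were above 0 in 30 of 40 members in LPS 5d, 25 in LPS + Beta-Ac and 13 at term. Of all 19199 genes, 9574, 9394 and 9384 were above 0. LPS 16h animal 029 is in none of these 3 comparisons and enters only through the shared filter, scaling and estimate of spread. Without it, NDUFB8 and COX4I1 were called higher in LPS 5d and NDUFB8 in LPS + Beta-Ac.

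NDUFA5 was the member with the largest fall at 5 days. It was at 28.8, 31.9 and 35.6 CPM after LPS, at 32.9, 29.0 and 30.2 CPM after LPS + Beta-Ac and at 40.3 and 40.5 CPM at term, all below the lowest preterm control at 44.3 CPM. Its log2 fold change was -1.005 (SE 0.17, adjusted p = 0.00154, limma) in LPS 5d and -1.07 (SE 0.17, adjusted p = 0.000688, limma) in LPS + Beta-Ac. At term it was -0.67 and was not called (adjusted p = 0.0684, limma). NDUFC2, a membrane subunit of complex I, was at 49.8, 41.2, 42.0 and 36.7 CPM in the preterm controls and at 39.5 to 49.1 CPM 16 hours after LPS, so these groups overlapped. It was at 27.2, 28.5 and 27.4 CPM in LPS 5d, at 28.8, 30.8 and 27.7 CPM in LPS + Beta-Ac and at 31.3 and 28.2 CPM at term. The log2 fold changes were -0.60 (SE 0.12, adjusted p = 0.00285, limma), -0.54 (SE 0.12, adjusted p = 0.00466, limma) and -0.50 (SE 0.13, adjusted p = 0.0434, limma), all called.

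NDUFB5, another membrane subunit of complex I, went from 49.2 to 67.5 CPM in the preterm controls to 39.3 to 43.7 CPM in LPS 5d, 39.6 to 42.8 CPM in LPS + Beta-Ac and 42.5 to 45.2 CPM at term, without overlap. Its log2 fold change was -0.45 (SE 0.13, adjusted p = 0.0326, limma) in LPS 5d and -0.48 (SE 0.13, adjusted p = 0.0216, limma) in LPS + Beta-Ac, and -0.39 at term, where it was not called (adjusted p = 0.165, limma). SDHD was at 61.0, 38.5, 47.4 and 32.9 CPM in the preterm controls and at 29.2, 26.7 and 29.7 CPM in LPS 5d, a log2 fold change of -0.62 (SE 0.20, adjusted p = 0.0486, limma). It was not called in LPS + Beta-Ac, where the log2 fold change was -0.41 (adjusted p = 0.178, limma), or at term, where it was -0.68 (adjusted p = 0.107, limma). Control animal 209, delivered at 135 days, was the lowest preterm control in all 4 genes, and control animal 113, also delivered at 135 days, was not. NDUFA5 and NDUFC2 were called lower in each of the 7 fits that left out 1 animal, in LPS 5d and likewise in LPS + Beta-Ac. NDUFB5 and SDHD were lost in LPS 5d without any one of animals 092, 101, 113, 239, 240 and 242, which left 2 calls, and were kept without control 209, and limma-voom called 3 of the 4. In LPS + Beta-Ac the NDUFB5 call was lost without any one of 092, 113, 248, 249 and 255, which left 2 calls. The term call of NDUFC2 was lost without any one of 092, 101, 113, 200 and 201, and without 209 there were 3 calls.

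**Figure D3:**
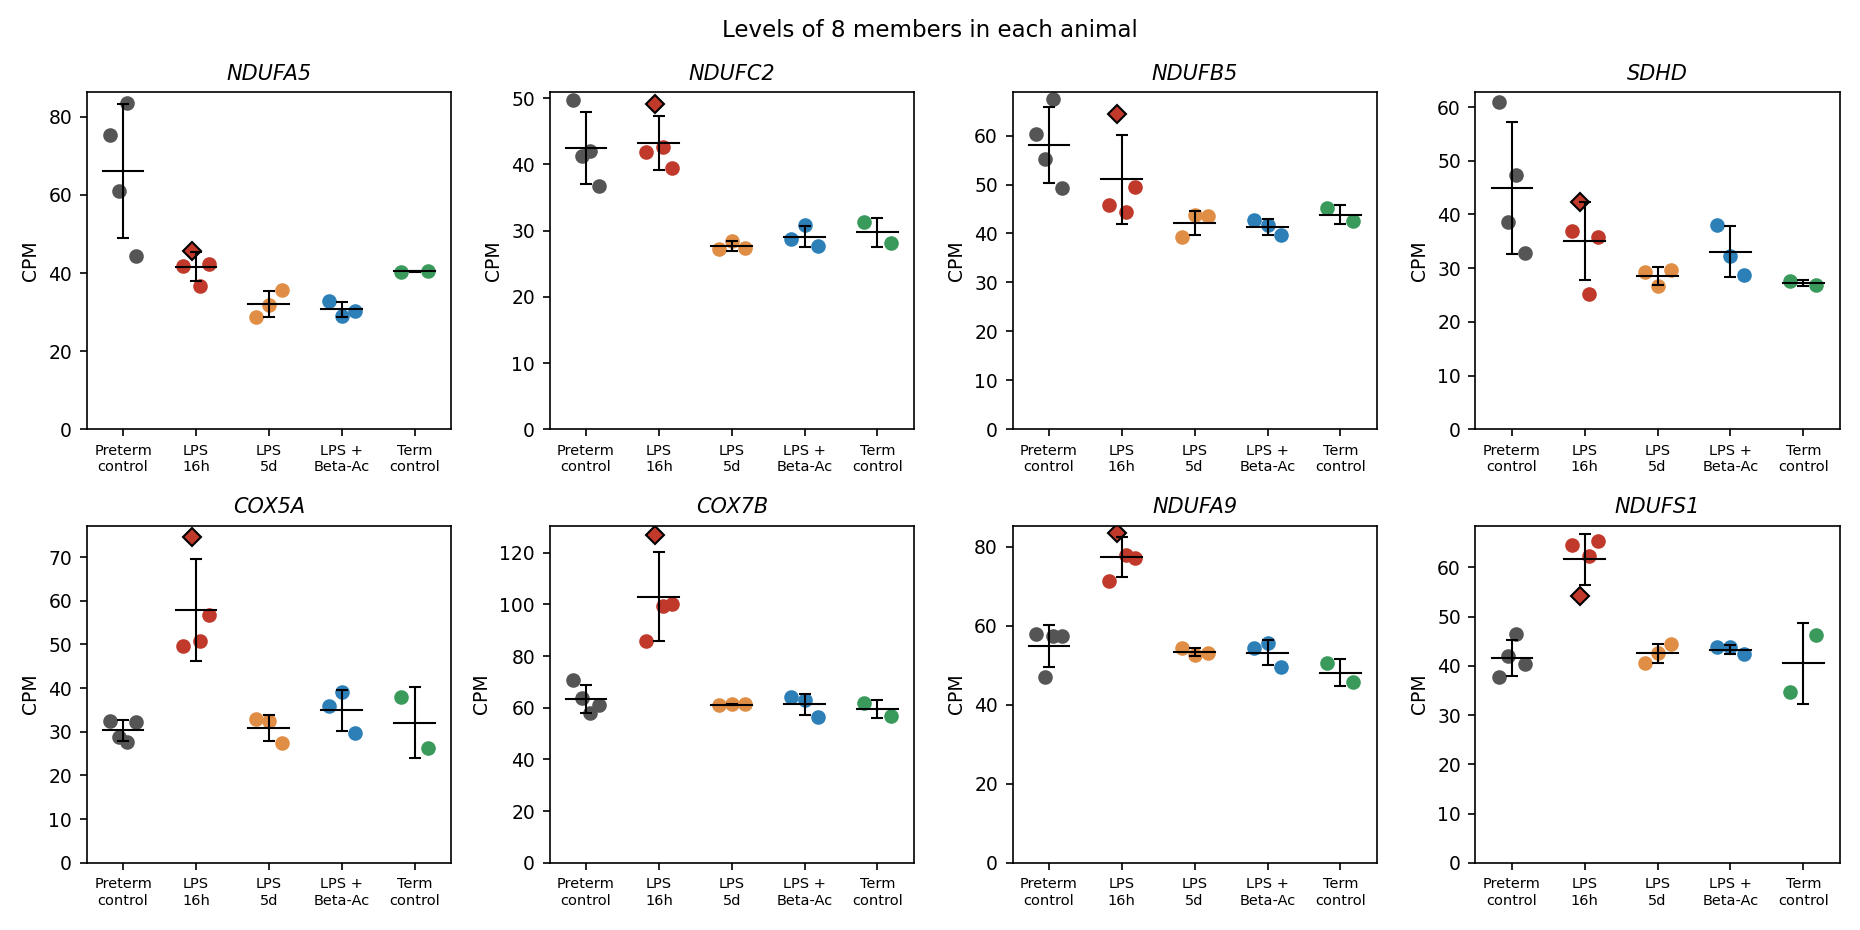
Level (CPM, linear axes from 0) of 8 members in each animal, with group means (line) and SD (bar). NDUFA5, NDUFC2, NDUFB5 and SDHD are low in LPS 5d, LPS + Beta-Ac and term, and COX5A, COX7B, NDUFA9 and NDUFS1 are high in LPS 16h, where the diamond is animal 029.

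Over the 16 animals the log2 CPM of these 4 genes varied together. The median of their 6 pairwise correlations was r = 0.781, and the median of their correlations with the 36 other members was r = 0.174. The genes were picked for their levels in these groups and the animals share the 5 groups, so this is a description. Over all 780 pairs of members the median was r = 0.546 in the 16 animals and r = 0.252 without animal 029.

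The representatives of the complexes stayed near the preterm level at 5 days and at term. In LPS 5d the 10 representatives had log2 fold changes from 0.01 for NDUFA4 to 0.41 for COX4I1, and none was called. COX4I1 was at 217, 198 and 196 CPM in LPS 5d, above the controls at 146 to 163 CPM, with an adjusted p of 0.151 (limma). NDUFV1 was at 0.18, NDUFS1 at 0.04, SDHA at 0.21, SDHB at 0.19, UQCRC1 at 0.07, CYC1 at 0.22, COX5A at 0.03 and COX7C at 0.03 on the log2 scale. In LPS + Beta-Ac they ran from -0.09 for NDUFA4 to 0.32 for SDHA, and at term from -0.26 for COX7C to 0.20 for SDHB, with none called in either. The SEs of all members lay between 0.09 and 0.25 in these 3 comparisons. A call needs a shift of several SEs, so shifts larger than the SEs could be missed. COX4I1 at 0.41 in LPS 5d and SDHD at -0.68 at term were not called.

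The 2 times after LPS were compared directly. In LPS 16h against LPS 5d, 13 of 40 members were called higher, against 19.2% of all genes, 0 of 40 lower, against 15.9%, and 0 of 40 past 2-fold, against 14.6%. The member median was 0.26 and that of all genes was -0.04. UQCRQ was at 40.1, 63.6, 38.9 and 42.6 CPM in LPS 16h and at 27.5, 23.8 and 19.9 CPM in LPS 5d, and differed by 0.95 on the log2 scale (SE 0.17, adjusted p = 0.000656, limma). COX5A differed by 0.89 (SE 0.16, adjusted p = 0.000572, limma), COX7B by 0.74 (SE 0.12, adjusted p = 0.000229, limma) and NDUFC2 by 0.64 (SE 0.12, adjusted p = 0.000507, limma). NDUFV2 differed by 0.65 (adjusted p = 0.00184, limma) and NDUFA9 by 0.53 (adjusted p = 0.000705, limma). Of the representatives, NDUFS1 at 0.53 (adjusted p = 0.00215, limma) and UQCRC1 at 0.46 (adjusted p = 0.0165, limma) were also called, and the other 7 were not, from -0.32 for NDUFV1 to 0.30 for CYC1. There were 8 members called higher in each of the 7 fits that left out 1 animal. Without animal 029, 11 of the 13 were called higher and COX4I1, NDUFB2, NDUFB7 and NDUFV1 were called lower, with a member median of 0.10. With the total count only, 8 were called higher and 2 lower, and the median of all genes moved by -0.18. Of all 19199 genes tested, 2653 were then called higher and 4850 lower.

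**Figure D4:**
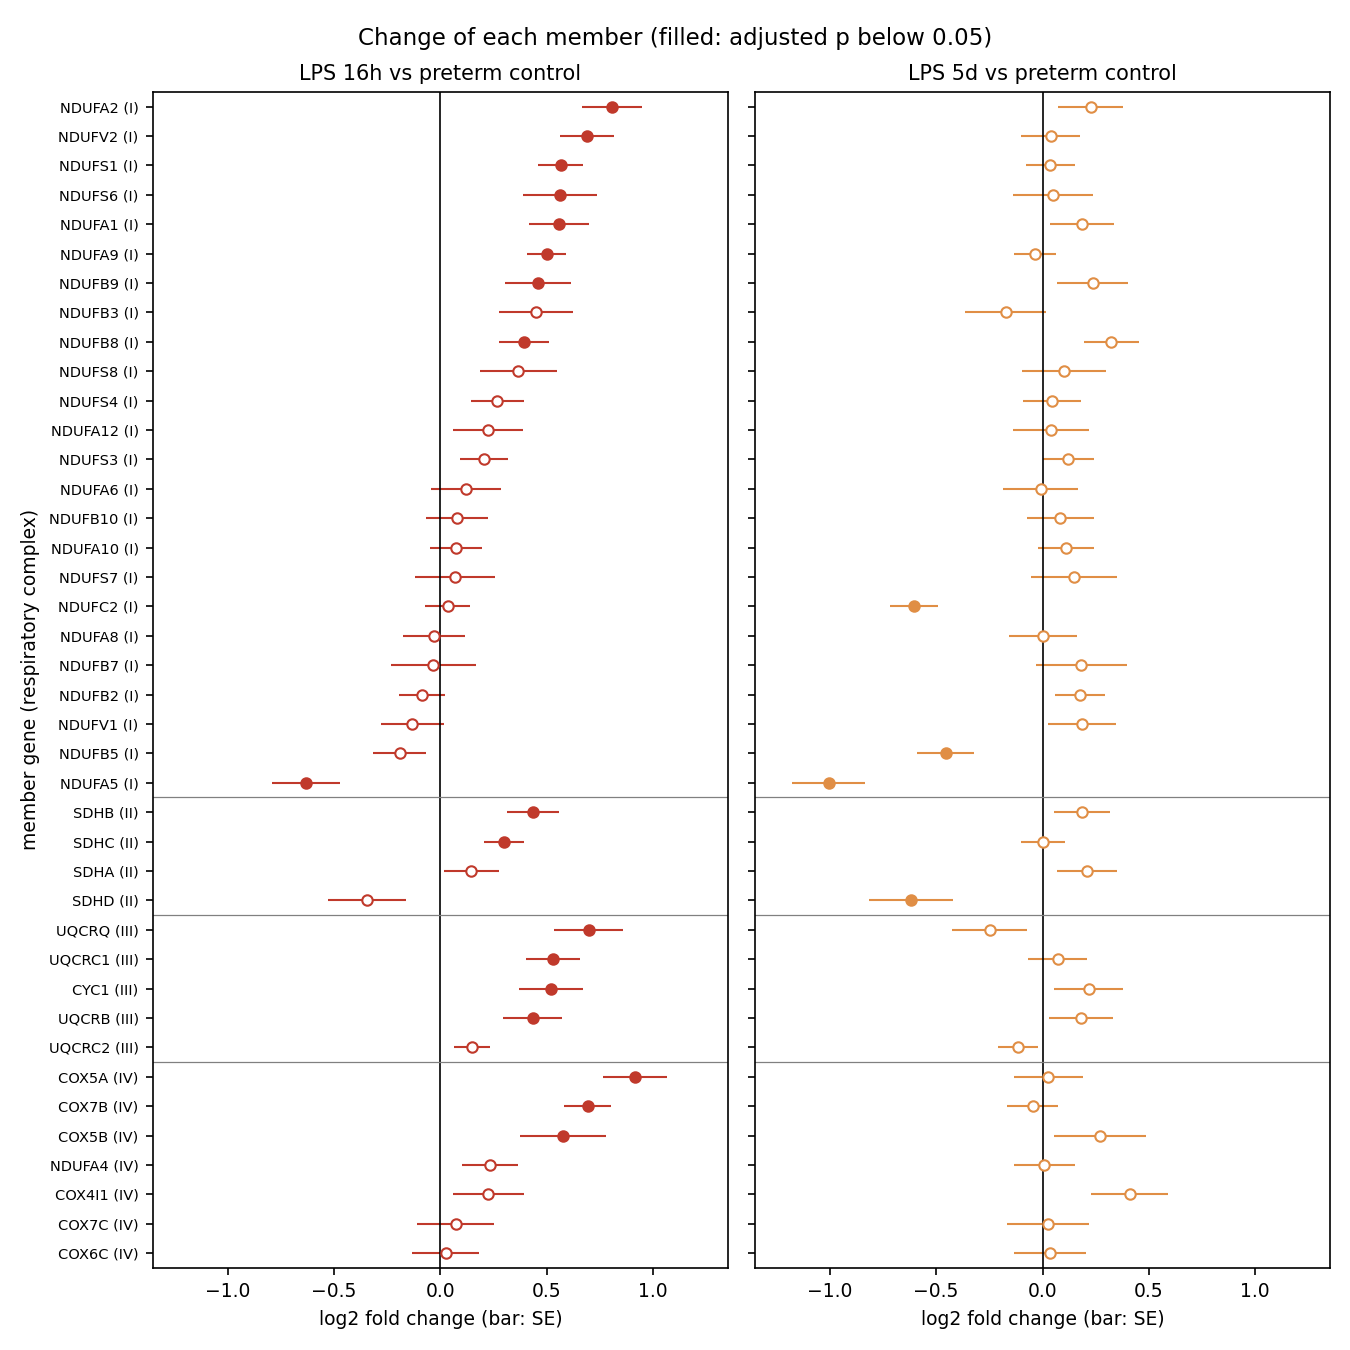
Log2 fold change of each member with its SE, in LPS 16h (left) and LPS 5d (right) against the same 4 preterm controls; filled points have an adjusted p below 0.05. On the left 17 members are called higher and NDUFA5 lower, and on the right NDUFA5, NDUFC2, NDUFB5 and SDHD are called lower.

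Adding Beta-Ac to LPS gave no called difference in the members. In LPS + Beta-Ac against LPS 5d, 0 of 40 members were called higher, against 0.0885% of all genes, 0 of 40 lower, against 0%, and 0 of 40 past 2-fold, against 0.0885%. No member had an unadjusted p below 0.05, against 924 of all 19199 genes, and limma-voom also called 0. The 2 members of smallest p in each direction were UQCRQ at 0.28, NDUFS8 at 0.21, NDUFA12 at -0.22 and COX4I1 at -0.20, none of them called (adjusted p = 1, limma). UQCRQ was at 26.7, 34.4 and 25.3 CPM with Beta-Ac, and the groups overlapped. COX4I1 was lower in all 3 of these animals, at 160 to 194 CPM, than in the LPS 5d animals. The SEs ran from 0.10 to 0.23. A call needs a difference of several SEs, so differences larger than the SEs could be missed in this comparison of 3 with 3 animals.

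Of the subunits that can replace a member or are particular to a tissue, C15orf48 had the largest change. C15orf48, whose product takes the place of NDUFA4 in complex IV in inflamed cells, was at 1.04, 0.602, 0.532 and 1.09 CPM in the preterm controls, on 13 to 30 counts. It was at 138, 62.2, 66.2 and 75.2 CPM in the LPS 16h animals, a fold of 95.1 and a log2 fold change of 6.57 (SE 0.33, adjusted p = 1.53e-09, limma). Animal 029, with the highest member score, had the lowest C15orf48 of its group. C15orf48 was at 2.14 to 2.57 CPM in LPS 5d (log2 fold change 1.504, adjusted p = 0.0118, limma), at 9.95, 9.75 and 4.47 CPM in LPS + Beta-Ac (3.17, adjusted p = 4.89e-05, limma) and at 2.54 and 1.2 CPM at term (1.09, adjusted p = 0.152, limma). Limma-voom called neither C15orf48 nor ACOD1 in LPS 5d. All 3 LPS + Beta-Ac animals lay above all 3 LPS 5d animals, a log2 fold change of 1.66 that was not called (adjusted p = 0.166, limma). NDUFA4 itself was at 73.2 to 90 CPM in the preterm controls and at 78.6, 126, 84.6 and 92.1 CPM in LPS 16h, a log2 fold change of 0.23 that was not called (adjusted p = 0.18, limma). NDUFA4L2, a relative of NDUFA4 that is induced in low oxygen, fell from 3.34 to 6.85 CPM to 0.765 to 2.27 CPM at 16 hours, a log2 fold change of -1.68 (SE 0.30, adjusted p = 0.000446, limma), and was not called at 5 days (-0.71, adjusted p = 0.165, limma).

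ACOD1 is no subunit. It makes itaconate, an inhibitor of succinate dehydrogenase. ACOD1 was at 2.92 to 4.08 CPM in the preterm controls and at 194, 116, 99.0 and 242 CPM in LPS 16h, a fold of 43.2 and a log2 fold change of 5.43 (SE 0.27, adjusted p = 1.45e-09, limma). It was at 7.26 to 9.66 CPM in LPS 5d (log2 fold change 1.22, adjusted p = 0.0121, limma), at 9.79 to 19.2 CPM in LPS + Beta-Ac (2.08, adjusted p = 0.000268, limma) and at 3.75 and 5.37 CPM at term (0.37, adjusted p = 0.605, limma). C15orf48 and ACOD1 are both known from activated myeloid cells, and the myeloid marker sums given above were also higher in the LPS groups than in preterm controls. At term 9 of the 16 myeloid markers were called higher, against 1.43% of all genes, and neither C15orf48 nor ACOD1 was called. The part of myeloid cells in these values was not tested. COX4I2, the lung-rich isoform of COX4I1, was at 55.0, 99.9, 47.0 and 57.6 CPM in LPS 16h against 93.8 to 104 CPM in the controls, with animal 029 inside the control range (log2 fold change -0.67, adjusted p = 0.00758, limma, and -0.87 without that animal). COX6B2 rose by 0.59 at 16 hours (adjusted p = 0.0228, limma), and COX7A1, the muscle isoform of a complex IV subunit, had a log2 fold change of -0.06 (adjusted p = 0.847, limma). Outside LPS 16h, COX4I2, COX6B2 and COX7A1 were not called in any group against preterm controls. COX6A2 and COX8C were below the filter, and COX7B2 and HIGD1A matched no row.

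**Figure D5:**
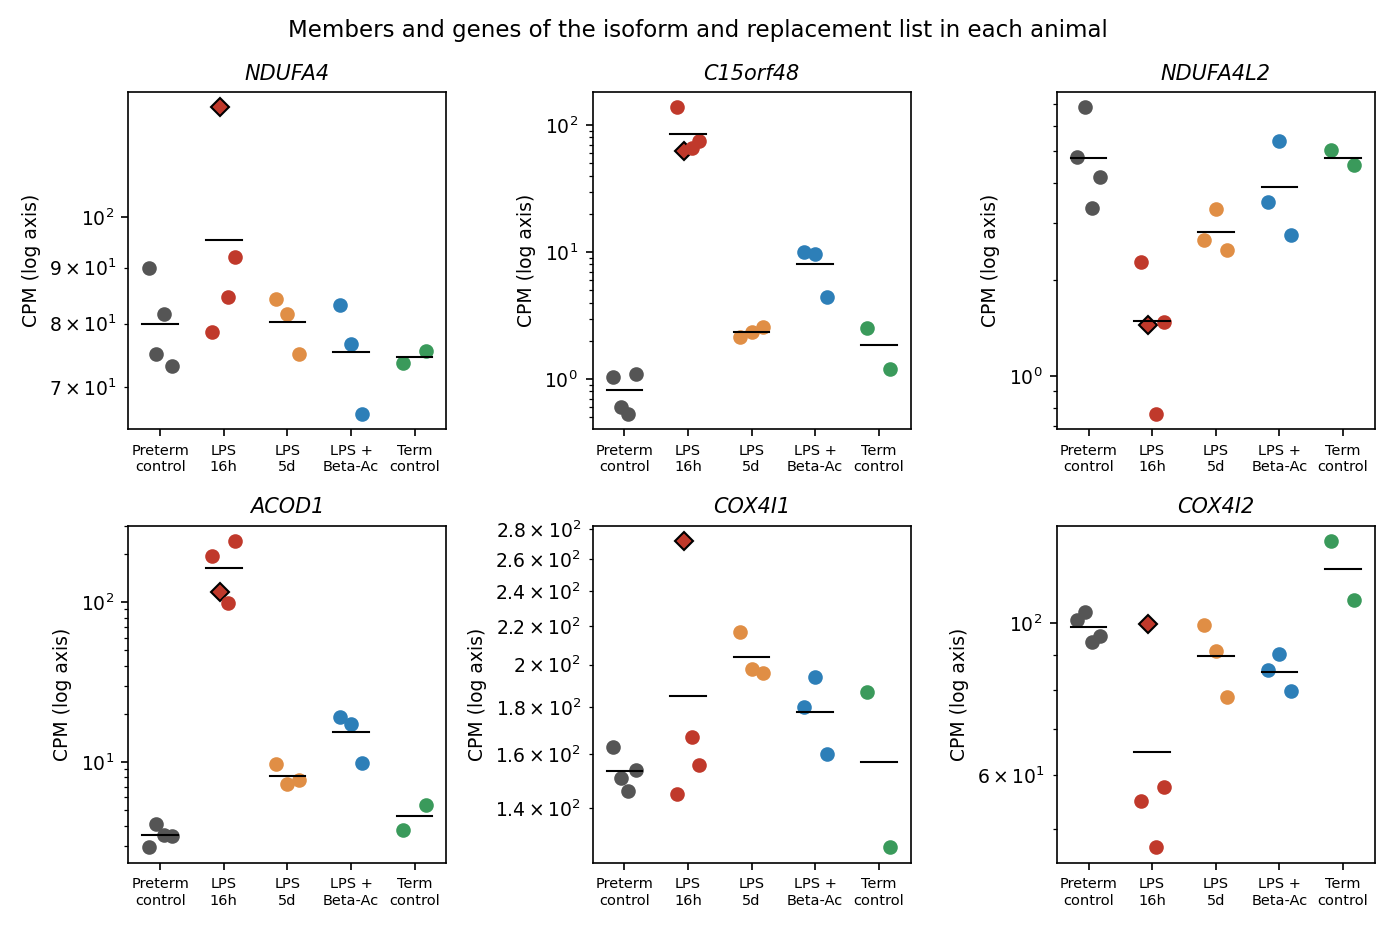
Level (CPM, log axes) of NDUFA4 and COX4I1, which are members, and of C15orf48, NDUFA4L2, ACOD1 and COX4I2 in each animal; lines are group means and the diamond is LPS 16h animal 029. C15orf48 lies at 62.2 to 138 CPM in LPS 16h and at 0.532 to 1.09 CPM in the preterm controls, and NDUFA4 overlaps between these groups.

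Of 11 other nuclear subunits of complexes I, III and IV, 6 were called higher and none lower at 16 hours. The shares of all genes were 18.5% and 19.9%. The median log2 fold change of the 11 was 0.41, with a range from -0.23 to 0.68. In LPS 5d 2 of the 11 were called higher, against 5.49% of all genes, and none lower, against 9.22%. Their median was 0.26 (0.255), and their mean log2 CPM lay at 5.92 to 6.1, above the preterm controls at 5.76 to 5.89. COX7A2 rose by 0.68, NDUFV3 by 0.52 and COX6A1 by 0.57 on the log2 scale (adjusted p = 0.000978, 0.00155 and 0.00165, limma). COX6A1 was also called higher at 5 days, at 0.50 in LPS 5d (adjusted p = 0.0177, limma) and at 0.53 in LPS + Beta-Ac (adjusted p = 0.0104, limma), and NDUFV3 at 0.39 in LPS 5d (adjusted p = 0.0359, limma). Of 15 ATP synthase subunits, 7 were called higher and none lower at 16 hours, against the same 18.5% and 19.9% of all genes. ATP5MC1, 1 of 3 genes for the same c subunit of the rotor, was at 11 to 14.5 CPM in the preterm controls and at 25.0, 38.1, 33.8 and 29.3 CPM in LPS 16h, a log2 fold change of 1.23 (SE 0.18, adjusted p = 8.34e-05, limma). ATP5F1B, the catalytic beta subunit, rose by 0.52 (adjusted p = 0.000337, limma) and ATP5PD, of the stalk, by 0.55 (adjusted p = 0.00529, limma).

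At 5 days the c subunit genes went different ways. ATP5MC3 fell by 0.57 in LPS 5d (adjusted p = 0.00198, limma) and by 0.58 in LPS + Beta-Ac (adjusted p = 0.00111, limma), and ATP5MC2 rose by 0.69 and 0.56 (adjusted p = 0.0208 and 0.0484, limma). The ATP5MC2 call in LPS + Beta-Ac was lost with limma-voom. ATP5PB, of the peripheral stalk, fell by 0.51 and 0.53 (adjusted p = 0.0185 and 0.0133, limma). At term ATP5PB had a log2 fold change of -0.79 (adjusted p = 0.012, limma) and ATP5MC3 of -0.54 (adjusted p = 0.0186, limma). The 3 c subunit genes encode the same mature peptide, and reads that they share could be split among them by the authors' counting.

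Cytochrome c was higher than in the preterm controls at 16 hours and lower at 5 days. CYCS, the electron carrier between complexes III and IV, was at 64.9, 56.8, 58.2 and 39.0 CPM in the preterm controls and at 66.2 to 88.5 CPM in LPS 16h. It was at 20.3, 24.4 and 20.2 CPM in LPS 5d, at 19.7, 20.5 and 19.0 CPM in LPS + Beta-Ac and at 24.6 and 29.1 CPM at term, all below every preterm control. The log2 fold change was 0.45 in LPS 16h (adjusted p = 0.0245, limma), -1.32 in LPS 5d (adjusted p = 0.000299, limma), -1.44 in LPS + Beta-Ac (adjusted p = 3.78e-05, limma) and -1.004 at term (adjusted p = 0.00867, limma). In LPS 16h against LPS 5d CYCS differed by 1.77 on the log2 scale (adjusted p = 8.39e-07, limma). Of the 14 tested genes of import and content, 9 were called higher and 1 lower at 16 hours. The shares of all genes were 18.5% and 19.9%, and the median of the 14 was 0.47. HSPA9 rose by 1.27 and HSPD1 by 1.25, both chaperones of the matrix (adjusted p = 1.78e-07 and 4.84e-07, limma), and TOMM40, the outer membrane pore, by 1.06 (adjusted p = 7.57e-05, limma). HSPD1 went from 140 to 181 CPM in the preterm controls to 312 to 413 CPM in LPS 16h, without overlap. At 5 days CYCS and TOMM70, an import receptor, were the 2 called lower of 14 in both LPS 5d and LPS + Beta-Ac. Of all genes, 9.22% and 10.2% were called lower there. TOMM70 was at -0.45 (adjusted p = 0.00993, limma) and -0.51 (adjusted p = 0.00352, limma).

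Of 17 regulators of mitochondrial biogenesis, 6 were called higher and 3 lower at 16 hours, with a median of 0.01. Of all genes, 18.5% were called higher and 19.9% lower. PPRC1, a coactivator related to PGC-1alpha that responds early to stimuli, was at 54.7 to 59.8 CPM in the preterm controls and at 126, 149, 191 and 197 CPM in LPS 16h, a log2 fold change of 1.51 (SE 0.15, adjusted p = 1.44e-06, limma). It was back at 45.9 to 67.7 CPM in LPS 5d. ESRRA, a nuclear receptor that drives genes of oxidative metabolism, rose by 1.00 (adjusted p = 0.000601, limma), and POLG, the mitochondrial DNA polymerase, by 0.36 (adjusted p = 0.00275, limma). PPARGC1A, the gene of PGC-1alpha, was at 4.72, 2.07, 5.40 and 3.31 CPM in LPS 16h against 5.40 to 12.3 CPM in the controls, a log2 fold change of -1.08 (adjusted p = 0.00902, limma; named after its value was seen). GABPB1, a subunit of a factor that binds promoters of respiratory genes, was called lower in the later groups. It was at 27.9 to 42.5 CPM in the preterm controls, and its log2 fold change was -0.82 in LPS 5d (adjusted p = 0.00315, limma), -0.71 in LPS + Beta-Ac (adjusted p = 0.00614, limma) and -0.71 at term (adjusted p = 0.039, limma), where limma-voom did not call it. YY1 fell by 0.38 and 0.37 in LPS 5d and LPS + Beta-Ac (adjusted p = 0.0266 and 0.0252, limma), and TFAM, the packaging factor of mitochondrial DNA, by 0.50 in LPS + Beta-Ac (adjusted p = 0.0345, limma).

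Of 34 assembly factors, 6 were called higher and 5 lower at 16 hours, when 18.5% of all genes were called higher and 19.9% lower, so nothing is read from these counts. In LPS 5d 0 were called higher and 5 lower, against 5.49% and 9.22% of all genes. In LPS + Beta-Ac 0 were called higher and 6 lower, or 5 lower by limma-voom, against 7.14% and 10.2% of all genes. COX17, a copper chaperone for complex IV, rose by 1.26 at 16 hours (adjusted p = 4.5e-05, limma), and TTC19 of complex III and NUBPL of complex I fell by 0.70 and 0.90 (adjusted p = 3.63e-05 and 0.00204, limma). TMEM126B, which helps to build the membrane arm of complex I, had log2 fold changes of -1.30 in LPS 5d (adjusted p = 0.000298, limma), -1.24 in LPS + Beta-Ac (adjusted p = 7.91e-05, limma) and -0.75 at term (adjusted p = 0.0271, limma). SDHAF4 fell by 0.52 and COX20 by 0.66 in LPS 5d (adjusted p = 0.00301 and 0.00773, limma), and in LPS + Beta-Ac COX20 fell by 0.84 and NDUFAF4 by 1.00 (adjusted p = 0.00126 and 0.00145, limma). Of 17 genes of the tricarboxylic acid cycle and pyruvate dehydrogenase, 7 were called higher and 1 lower at 16 hours, against the same 18.5% and 19.9% of all genes. There the log2 fold changes of CS, the citrate synthase, MDH2 and FH were 0.53, 0.68 and 0.74 (adjusted p = 0.000107, 0.00018 and 0.000256, limma). At 5 days 0 were called higher in LPS 5d or LPS + Beta-Ac, against 5.49% and 7.14% of all genes. Called lower were 3 in LPS 5d and 5 in LPS + Beta-Ac, or 2 and 4 by limma-voom, against 9.22% and 10.2% of all genes. DLAT and DLD, of the pyruvate dehydrogenase complex, were among them, at -0.61 and -0.56 in LPS 5d (adjusted p = 0.00158 and 0.00691, limma). The 13 genes encoded in the mitochondrial genome matched no row and are not analysed here.

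Proliferation markers were low in the same later groups. The 16 genes summed to 293 to 385 CPM in the preterm controls, 262 to 325 CPM in LPS 16h, 170 to 186 CPM in LPS 5d, 202 to 211 CPM in LPS + Beta-Ac and 147 to 165 CPM at term. Of all genes, 19.9% were called lower at 16 hours, 9.22% in LPS 5d, 10.2% in LPS + Beta-Ac and 2.58% at term. Of the 16 proliferation markers, 3 were called lower at 16 hours, 12 in LPS 5d, 10 in LPS + Beta-Ac and 13 at term. Their part in the lower members was not tested. Muscle markers were high in animal 240 only, and its NDUFA5, NDUFC2, NDUFB5 and SDHD lay at 31.9, 28.5, 43.7 and 26.7 CPM, with 28.8 to 35.6, 27.2 to 27.4, 39.3 to 43.5 and 29.2 to 29.7 CPM in the other LPS 5d animals. Its member score was 5.63, against 5.62 and 5.52.

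Outside the lists, the 5 genes whose log2 CPM over the 16 animals was most like the member score were SNX17 (r = 0.963), NTMT1 (r = 0.963), PPP1R7 (r = 0.961), UFC1 (r = 0.956) and ZMYND19 (r = 0.948). Without animal 029 the same 5 had r from 0.873 to 0.934. The animals share groups, library depth and scaling, so these are descriptions.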

How the data were processed

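Total RNA of 16 fetal lungs was poly(A) selected and sequenced as 75 bp paired-end reads. The authors pseudoaligned the reads with kallisto to Mmul_10 transcripts, summed them to genes with tximport and deposited 1 table of whole-number counts, with 1 column per animal and no scaling. The sources used here give no versions and no rule for rounding. The layout of the table (column names made of digits) kept its columns from being recorded under the unit counts, so the planned count test was replaced by limma. The labels and the methods name different extraction kits.

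Genes with at least 0.371 CPM in 2 animals and 15 counts in all were kept (19199 of 22515). Symbols were matched by Ensembl ID (17256 IDs, 66 symbols with several). Counts were scaled by TMM (trims 30% and 5%), turned into log2 CPM with a prior count of 2, and fitted with limma 3.58.1 (trend, robust) in R 4.3.3, with 1 mean per group over all 16 animals (11 residual degrees of freedom) and Benjamini-Hochberg adjustment over all genes in each of 6 comparisons. The fit was run on simulated data, with a pass rule on recovery only for changes larger than those of the members. It is therefore no check on changes of their size. Each library is a separate fetus, and libraries of 1 group differed beyond sampling noise (chi-square per degree of freedom 32.5 to 173). Depth was 20169363 to 48052891 counts per library, with 2 to 4 animals per group.

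The members and lists were chosen with earlier results of these data known. Named members were those called, up to 6 per direction by smallest p, the 2 of smallest p per direction where none was called, and 10 representatives fixed by role, and from other lists up to 3 per comparison. NDUFA1, NDUFB8, NDUFB9, NDUFS6, SDHC, COX5B, PPARGC1A and other genes outside the rule were named after their values were seen. Alternatives were another scaling, filter, prior count or model of spread, only the 2 groups compared, and leaving out each animal.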

Additional observations from a re-analysis of the deposited data

Results flagged for a closer look

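In 3 of 82 groups of 4 values examined, 1 animal lay far from the other 3 on the log2 CPM scale, and chance gives about 1 in 20. NDUFA9 was at 5.55 in preterm control 101, with 5.84 to 5.85 in the other controls. In LPS 16h animal 029, NDUFA8 was at 5.90, with 5.13 to 5.21 in the others, and SDHB was at 6.29 (6.285), with 5.74 to 5.80 in the others.

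In 13 members the change after LPS differed between 16 hours and 5 days by a direct test of the 2 LPS groups (limma, Benjamini-Hochberg adjusted p below 0.05). The log2 fold changes of LPS 16h against LPS 5d were 0.74 for COX7B, 0.64 for NDUFC2, 0.89 for COX5A, 0.945 for UQCRQ, 0.53 for NDUFA9 (0.534), 0.65 for NDUFV2 and 0.53 for NDUFS1. They were 0.58 for NDUFA2, 0.46 for UQCRC1, 0.62 for NDUFB3, 0.30 for SDHC, 0.26 for UQCRC2 and 0.51 for NDUFS6. All 13 were higher at 16 hours.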

How the results depend on the processing

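The planned edgeR and DESeq2 fits were not run, because the layout of the table kept its columns from being recorded as counts. No paired analysis was possible because the groups share no replicate numbers. With the total count only, 9 members were called higher and 5 lower in LPS 16h against preterm controls (median 0.05), 8 and 2 in LPS 16h against LPS 5d (median 0.071), and 0 lower at term. Of all 19199 genes tested, 2542 were called higher and 6187 lower in the first of these, and 2653 and 4850 in the second. The log2 fold change then turned to -0.056 for SDHA and -0.13 for COX7C in LPS 16h, -0.005 for NDUFA4 in LPS 5d, 0.019 for NDUFS1 at term and -0.14 for COX7C in LPS 16h against LPS 5d. Median-of-ratios scaling and a fit of only the 2 groups each left 0 members past 2-fold in LPS 5d. With only the 2 groups, 1 member was called higher in LPS 5d, 2 in LPS + Beta-Ac, and 0 lower at term, as with limma-voom. Beyond the scaling itself, the cause was not tested. Of 168 summary values under these settings, 155 stayed within a set tolerance, which does not mean unchanged. A median passed if it moved by less than 0.157, the SD of the member score within groups. A count passed within a set ratio. With median-of-ratios scaling, 18 members called higher in LPS 16h against preterm controls, in place of 17, passed.

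Leaving out 1 animal, LPS 16h against preterm controls had 14 to 19 members higher, 1 to 2 lower, 0 to 1 past 2-fold and a median of 0.158 to 0.345. LPS 5d had 0 to 2 higher, 2 to 4 lower and 0 to 1 past 2-fold. LPS + Beta-Ac had 0 to 1 higher, 2 to 3 lower and 0 to 1 past 2-fold. Term had 0 to 3 lower and a median of -0.209 to 0.033. LPS 16h against LPS 5d had 9 to 14 higher, 0 to 4 lower, 0 to 1 past 2-fold and a median of 0.099 to 0.304. Signs changed in members that were not called. COX7C ran from -0.07 to 0.192 in LPS 16h, -0.095 to 0.171 in LPS 5d, -0.174 to 0.134 in LPS + Beta-Ac, -0.124 to 0.166 in LPS 16h against LPS 5d and -0.228 to 0.08 in LPS + Beta-Ac against LPS 5d. In LPS 5d NDUFS1 ran from -0.01 to 0.097, NDUFA4 from -0.032 to 0.067 and COX5A from -0.017 to 0.108, and in LPS + Beta-Ac NDUFA4 from -0.138 to 0.003. At term NDUFV1 ran from -0.436 to 0.063, NDUFS1 from -0.259 to 0.159, SDHA from -0.218 to 0.238, UQCRC1 from -0.271 to 0.028, CYC1 from -0.451 to 0.006, COX4I1 from -0.267 to 0.284 and COX5A from -0.2 to 0.325. SDHA ran from -0.164 to 0.014 in LPS 16h against LPS 5d. In LPS + Beta-Ac against LPS 5d NDUFS1 ran from -0.009 to 0.059, SDHB from -0.076 to 0.044, UQCRC1 from -0.034 to 0.167 and CYC1 from -0.134 to 0.033.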
